A study of Drosophila melanogaster with 7 samples.

Results

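Simple repeats with units of 1 to 4 letters were examined in nascent RNA of Drosophila melanogaster embryos at nuclear cycle 14. They were chosen by name alone, as the rows of the deposited repeat table that belong to the class of simple repeats and whose unit, the text in brackets, has 1 to 4 letters. By this rule 321 of the 26966 rows of the table (17753 genes and 9213 repeats) were members, among 8980 simple repeats in all. Of the members, 4 have a unit of 1 letter, 12 of 2 letters, 62 of 3 letters and 243 of 4 letters.

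TM embryos came from mothers with a homozygous knockout of Su(var)3-9 and with short hairpin RNAs against dSetDB1 (egg) and G9a, driven in late oogenesis by a maternal tubulin Gal4, so that the 3 methyltransferases of lysine 9 of histone H3 were removed or depleted. The fathers of those mothers brought in the driver, carried on chromosome 2, and also lacked Su(var)3-9 on both homologues. The methods collect embryos from the F1 flies of this cross and name no other males for TM. On that reading the embryos themselves also lacked Su(var)3-9 on both homologues. The ctr embryos, which the labels call wildtype, rest on a TRIP line, a stock of the transgenic RNAi collection, that the study names as its control. Their cross shares its second line code with TM, and the methods do not say which stock each code stands for. Each library holds pooled hand-staged whole embryos aged at 25 °C, with 4 libraries of TM and 3 of ctr, measured by Gro-seq, a run-on assay in which polymerases caught in the act of transcription add a biotinylated nucleotide to their RNA. Since these are bulk samples, fewer cells that transcribe a repeat and less RNA per cell cannot be told apart.

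Simple repeats, or microsatellites, are head-to-tail copies of a short unit that arise largely through slippage of the replication machinery. In flies they are spread over the chromosome arms, in introns, between genes and, for units of 3 letters, inside coding exons, whereas the long satellite arrays of the pericentromeric heterochromatin often have longer units. Methylated lysine 9 of histone H3 is bound by HP1 proteins and marks the constitutive heterochromatin, where it holds transposable elements silent.

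A repeat row sums the reads of all genomic copies that carry that unit name. To picture the units, a run is printed for the repeat behind each of the 4 members that passed the test in TM against ctr and of 3 members with very high counts. Each is the longest perfect run of at most 60 bases outside annotated exons, read on the plus strand. Sequences are from the RefSeq genome of build dm6, 5′ to 3′. Capitals mark the perfect run and lower case the 20 bases on each side. A run can be written from any letter of its unit, and rotations such as GGTA and CCTT are members with rows of their own. The table does not say under which name these places were counted, and it gives no counts for single places.
AGGT repeat: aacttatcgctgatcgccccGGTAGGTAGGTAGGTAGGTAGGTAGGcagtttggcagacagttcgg
ACA repeat: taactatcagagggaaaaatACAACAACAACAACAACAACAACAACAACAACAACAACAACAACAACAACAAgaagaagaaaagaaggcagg
TTCC repeat: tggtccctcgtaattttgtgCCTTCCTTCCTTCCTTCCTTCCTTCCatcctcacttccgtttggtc
GGAC repeat: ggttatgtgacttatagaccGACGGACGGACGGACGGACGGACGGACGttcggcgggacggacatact
T repeat: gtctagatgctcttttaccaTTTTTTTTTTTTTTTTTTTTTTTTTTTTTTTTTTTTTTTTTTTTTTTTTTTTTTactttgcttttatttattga
AT repeat: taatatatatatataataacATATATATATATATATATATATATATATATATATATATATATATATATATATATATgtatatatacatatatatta
TG repeat: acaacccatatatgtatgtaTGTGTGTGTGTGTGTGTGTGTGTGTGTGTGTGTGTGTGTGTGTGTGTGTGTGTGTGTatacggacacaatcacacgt

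The stretch shown for (AGGT)n spans chr3L:6283108-6283173 and lies between genes. The stretch for (TTCC)n at chrX:16251797-16251862 and the stretch for (GGAC)n at chrX:18669601-18669668 also lie between genes. The other 4 are intronic. The stretch for (ACA)n at chrX:7702528-7702619 lies in CHES-1-like, which encodes a forkhead transcription factor, and the stretch for (T)n at chr3R:18606536-18606629 lies in the overlapping genes CG14304 and qin, the second of which acts in the piRNA pathway. The stretch for (AT)n at chr4:98126-98221 lies in pan, the TCF transcription factor of Wnt signaling, and the stretch for (TG)n at chr3L:8456491-8456587 lies in Gug, which encodes the corepressor Atrophin.

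In the reference genome, 9220 perfect runs of units of 1 to 4 letters reached at least 20 bases. By period, 1532 had units of 1 letter, 3997 of 2 letters, 2534 of 3 letters and 1157 of 4 letters. Introns held 51.9% of the runs, exons 19.4% and the space between genes 26.6%. Runs with a period of 3 were placed in exons most often, in 36.1% of cases, against 5.29% for a period of 1, 15.6% for a period of 2 and 14.9% for a period of 4. The X chromosome carried 3225 runs, or 137 per Mb, whereas the large autosomal arms carried between 47.2 and 57.0 per Mb, the small chromosome 4 had 45.2 and the Y 26.5.

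**Figure D1:**
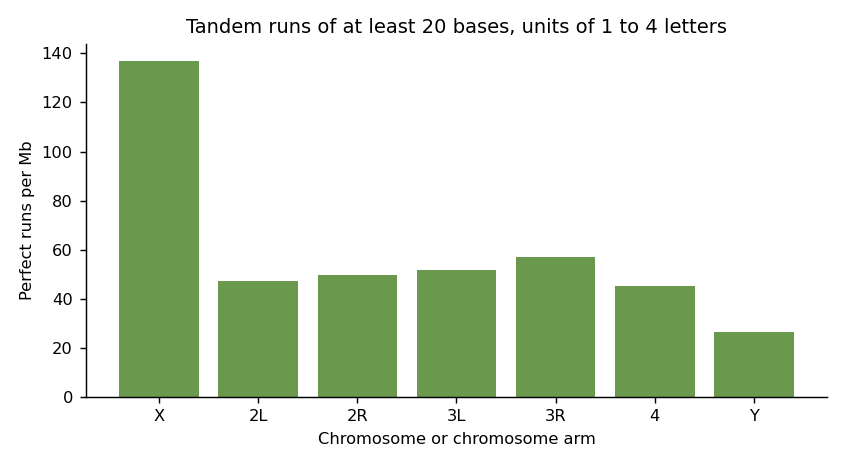
Number of perfect tandem runs of at least 20 bases per Mb of sequence (vertical axis) for each chromosome or arm of build dm6 (horizontal axis). Bars are counts from the reference genome and carry no error; X stands at 137 per Mb and every other bar lies at or under 57.0.

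The libraries held 33119922 to 35131766 counts in TM and 29391697 to 31509516 in ctr. Ribosomal and other RNA rows took 29.4% to 34.3% of the counts in TM and 29.8% to 32.3% in ctr. Libraries of a group were compared over 4856 features whose mean reached 1000 counts, and the chi-square divided by its degrees of freedom was 60.6 to 232 in TM and 28.9 to 42.3 in ctr, where sampling noise alone gives about 1, so no library was a copy of another. The TM libraries also differed among themselves in genes of cellularization: slam, which acts in membrane growth, had 113199, 73868, 62017 and 27090 counts in TM, against 44284, 41529 and 53538 in ctr, and its part in the values of the repeats was not tested. The 13 listed genes of the cycle 14 embryo summed to 3646 to 8119 CPM (counts scaled to a common library size) in TM and 4837 to 5752 in ctr, with slam the highest, while 6 follicle cell genes summed to 6.31 to 21.3 CPM in TM and 10.2 to 23.6 in ctr and 5 muscle genes to 8.80 to 10.5 in TM and 5.88 to 8.03 in ctr. The 4 neuronal genes summed to 241 to 288 CPM in TM and 229 to 247 in ctr, most of it elav. Among them Syt1, a calcium sensor of synaptic vesicles, had 767, 907, 914 and 688 counts in TM against 147, 183 and 173 in ctr, or 24.6 ± 3.84 CPM in TM and 5.37 ± 0.478 in ctr (SD), and was called higher with a log2 fold change of 2.20 (edgeR adjusted p = 8.98e-06). Of the muscle genes, up had 3.54 ± 0.566 CPM in TM and 1.37 ± 0.302 in ctr and Act57B 1.70 ± 0.471 in TM and 0.622 ± 0.256 in ctr (SD), and neither passed the test (edgeR adjusted p = 0.0829 and 0.327). Mhc and Act88F of the muscle list had log2 fold changes of -0.16 and -0.09. The other neuronal genes had -0.05 for brp, 0.32 for nSyb and 0.10 for elav. None of these passed the test (edgeR adjusted p from 0.419 to 0.955), and TpnC4 was not tested. The part of these lists in the repeat values was not tested. Nascent reads of the targeted genes came to 22.1 ± 3.45 CPM in TM and 20.8 ± 1.79 in ctr for egg, 87.9 ± 13.5 in TM and 90.8 ± 2.46 in ctr for G9a, and 125 ± 5.16 in TM and 143 ± 11.5 in ctr for Su(var)3-9 (SD, n = 4 and 3). None passed the edgeR test (adjusted p = 0.843, 0.893 and 0.201), and since the hairpins act on RNA in the mother and the deleted part of Su(var)3-9 is not given in the sources used here, these levels do not check the depletion.

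The question asked of the repeats was whether nascent counts differ in embryos without the methyltransferases. Short-unit simple repeats took about 1% of the counts in both groups, somewhat less in TM, and very few single units passed the test. They held 1.01%, 1.05%, 0.968% and 0.974% of all counts in the TM libraries and 1.15%, 1.14% and 1.06% in the ctr libraries. The groups did not overlap, with a mean of 1.002% ± 0.0393 in TM and 1.12% ± 0.0486 in ctr (SD, n = 4 and 3). Relative to the counts on genes, the share was 1.75% ± 0.0333 in TM and 1.86% ± 0.0405 in ctr, again with no overlap. Summed over the members and scaled by TMM factors, the level was 10079, 10230, 10396 and 10074 CPM in TM against 11146, 10862 and 10780 CPM in ctr, a ratio of means of 0.933.

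The longer simple repeats had a lower sum as well. Among all simple repeats, the members took 53.9% ± 0.400 of the counts in TM and 54.2% ± 0.615 in ctr, and these ranges overlapped. Repeats with units of 5 to 7 letters summed to 8233 to 8628 CPM in TM and 8944 to 9088 CPM in ctr, also without overlap. Neither sum was tested, since each is a score over members.

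Counts were concentrated in few units. The 2 members with the most counts held 15.2% of the counts of all members, the first 10 held 43.1% and the first 50 held 76.9%. The median member had a mean of 262 counts per library and the highest, (T)n, 27495, while 61 members reached a mean of 1000. At the other end, 37 members stayed below a mean of 10 counts and were not tested, 5 of them at 0 in every library, and among these 37 none had every TM library above or below every ctr library. The members just inside and outside this limit had means of 10.4 and 9.86 counts.

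Of the 284 members tested, none was called higher and 4 were called lower in TM (edgeR quasi-likelihood test, adjusted over genes and repeats together, threshold 0.05). This is 1.41% of the tested members, against 5.90% of all 17281 features tested, of which 2.82% were called higher and 3.08% lower. At an unadjusted p under 0.05, 5 members were higher and 20 lower, together 8.80%, against 19.2% of all features. DESeq2 called 3 members higher and 6 lower, where it called 8.79% of all features, and with adjustment over the repeat rows alone (2.45% called) only (AGGT)n was called. The TM libraries were all below the lowest ctr library for 25 tested members (8.80%, against 9.95% of all features) and above for 7 (2.46%, against 9.04%).

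The median log2 fold change of the tested members was -0.05, with quartiles of -0.23 and 0.12, against 0.01 for all features, -0.07 for repeats with units of 5 to 7 letters, 0.42 for LTR families and 0.45 for LINE families. The median of the members had a negative sign in the main test and in every alternative run. Of the tested members, 174 (61.3%) had a negative log2 fold change, against 48.7% of all features. Among the 61 members whose mean reached 1000 counts the median was -0.08, and 46 were negative (75.4%, against 51.4% of the 4856 features at that level). Of these 61, 1 was called (1.64%, against 10.2%), and 10 had an unadjusted p under 0.05 (16.4%, against 27.9%).

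**Figure D2:**
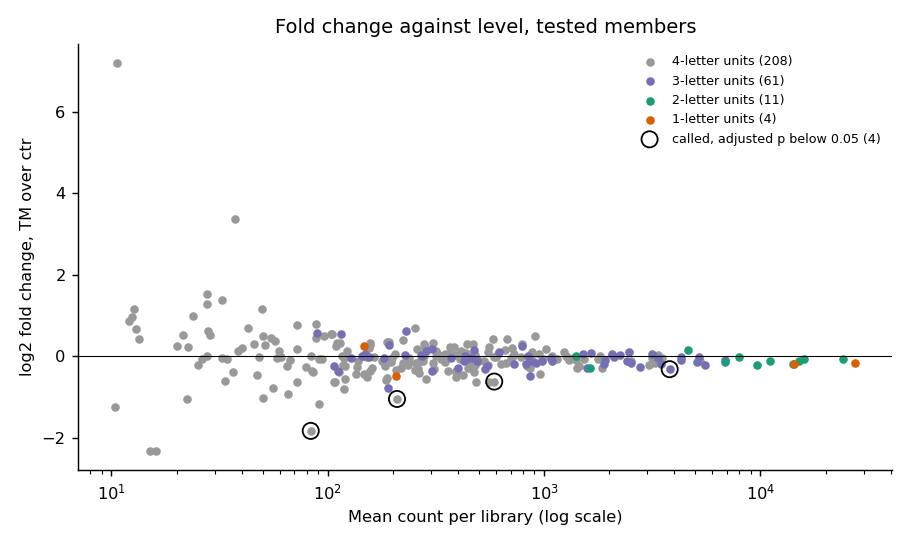
Log2 fold change of TM over ctr (vertical axis) against mean count per library on a log scale (horizontal axis) for the 284 tested members, coloured by unit length, with the 4 called members ringed. Members with many counts lie close to 0; the point at 7.19 is (AGTT)n, whose ctr libraries are all at 0, so that its fitted value is no measure of size.

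The called members were 1 of the units of 3 letters and 3 of the units of 4 letters. The unit AGGT had 143, 154, 150 and 150 counts in TM against 242, 272 and 352 counts in ctr. All TM libraries lay well under the lowest ctr library. Scaled to library size this was 4.49 ± 0.359 CPM in TM and 9.29 ± 2.08 CPM in ctr, and the log2 fold change was -1.05 ± 0.26 (SE, adjusted p = 0.0242).

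The unit ACA, a rotation of the AAC repeat, had 3548, 3899, 3241 and 3533 counts in TM against 4296, 4215 and 3914 counts in ctr. With 107 ± 4.90 CPM in TM and 133 ± 7.31 CPM in ctr it was by far the most abundant of the called members, and the log2 fold change was small at -0.32 ± 0.08 (SE, adjusted p = 0.0304). All 6 units of its repeat class had a negative value, between -0.32 and -0.01.

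The unit TTCC had 71, 35, 21 and 40 counts in TM against 112, 201 and 104 counts in ctr, or 1.23 ± 0.567 CPM in TM and 4.40 ± 1.45 CPM in ctr. It had the largest fitted size among the called members, a log2 fold change of -1.83 ± 0.48 (SE, adjusted p = 0.0334), on few counts. The unit GGAC had 572, 589, 378 and 448 counts in TM against 631, 766 and 734 counts in ctr, with 14.8 ± 2.06 CPM in TM, 22.7 ± 1.85 CPM in ctr. Its log2 fold change was -0.62 ± 0.17 (SE, adjusted p = 0.0432). In none of the 4 did the groups overlap, which adds no support, since the test on these same libraries picked them.

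These calls sat close to the threshold and depended on single libraries. Without TM replicate 2, TM replicate 3, ctr replicate 2 or ctr replicate 3, no member was called, although the 4 log2 fold changes kept their sign, with a range of -1.15 to -0.85 for AGGT, -0.35 to -0.27 for ACA, -2.17 to -1.53 for TTCC and -0.69 to -0.54 for GGAC over the 7 fits with 1 library removed. Without ctr replicate 1 only AGGT was called (log2 fold change -1.15), and without TM replicate 4 there were 5 calls. Calls over all features moved as well, from 1019 with all libraries. They numbered 587, 622, 589 and 633 without TM replicate 2, TM replicate 3, ctr replicate 2 and ctr replicate 3. Without ctr replicate 1 there were 564, and without TM replicate 4 there were 1396.

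**Figure D3:**
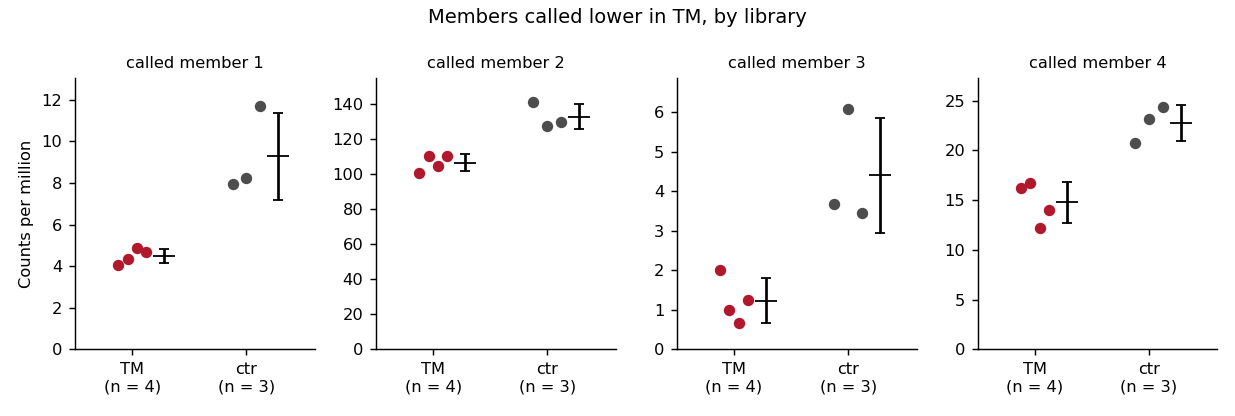
CPM (vertical axes, scaled by TMM factors) of the 4 called members in each TM library (left, n = 4) and each ctr library (right, n = 3), with the mean and SD beside the points. Called member 1 is AGGT, called member 2 is ACA, called member 3 is TTCC and called member 4 is GGAC. In each panel all TM points lie under all ctr points, for members picked by the test on these values.

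A tandem repeat can be written from any letter of its unit and from either strand, so several members name the same repeat. The 321 names fall into 47 such repeat classes, 2 with a period of 1, 3 with a period of 2, 10 with a period of 3 and 32 with a period of 4. Other names in the classes of 3 of the called units had both signs. In the class of AGGT, the rotation GGTA had 100, 122, 155 and 118 counts in TM against 102, 75 and 63 in ctr, a log2 fold change of 0.54 (edgeR adjusted p = 0.521). Of the 4 tested names of that class, AGGT included, 2 were negative. In the class of TTCC, the rotation CCTT had 38, 50, 53 and 38 counts in TM against 30, 10 and 8 in ctr (log2 fold change 1.38, edgeR adjusted p = 0.480). Of the 5 tested names of that class, TTCC included, 4 were negative, and CCTT was the exception. In the class of GGAC, the rotation ACGG had a log2 fold change of 0.20 (edgeR adjusted p = 0.576) and 4 of the 8 units were negative. With the counts of each class summed, an alternative chosen after seeing the data, none of the 47 classes was called in edgeR, where 5.91% of the 17044 features of that fit were, and 2 classes had an unadjusted p under 0.05. The classes had a median log2 fold change of -0.06, and 39 of 47 were negative.

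Units of 1 letter are the homopolymers. (T)n, the most abundant of all members, had 26469, 28784, 25385 and 27274 counts in TM against 28622, 30511 and 25419 in ctr. In CPM the groups overlapped, with 749 to 852 in TM and 843 to 940 in ctr, and the log2 fold change was -0.16 ± 0.08 (SE, edgeR adjusted p = 0.345). (A)n, its complement, had 381 to 455 CPM in TM and 469 to 486 CPM in ctr without overlap, with a log2 fold change of -0.18 ± 0.08 (SE, edgeR adjusted p = 0.238). The G and C homopolymers were rare: (C)n averaged 5.47 ± 1.65 CPM in TM and 7.64 ± 1.06 CPM in ctr, and (G)n 4.85 ± 0.959 CPM in TM and 4.07 ± 0.725 CPM in ctr, with edgeR adjusted p of 0.406 and 0.762. Together the 4 homopolymers summed to 1239 ± 67.8 CPM in TM and 1390 ± 52.4 CPM in ctr.

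Units of 2 letters held 33.0% of the members' counts in 12 names. (AT)n had 24871, 27798, 21683 and 23402 counts in TM against 26417, 23947 and 21218 in ctr, and (TA)n, the same repeat read from its other letter, 17055, 16924, 14972 and 14880 in TM against 15797, 17057 and 14430 in ctr. Their log2 fold changes were -0.07 and -0.08, and their groups overlapped. The AC repeat, the class with the most runs in the genome, 2257, is written with 4 names of 2 letters. Of these (CA)n had 379 to 446 CPM in TM and 458 to 484 CPM in ctr (log2 fold change -0.20 ± 0.08, SE) and (GT)n 273 to 300 CPM in TM and 300 to 339 CPM in ctr (-0.21 ± 0.08, SE), both without overlap and both short of the threshold with edgeR adjusted p of 0.208 and 0.153. (TG)n and (AC)n had log2 fold changes of -0.11 and -0.12, and in both the groups overlapped.

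Among the tested units of 2 letters (AG)n and (GA)n had a value that was not negative. (AG)n averaged 148 ± 16.2 CPM in TM and 134 ± 11.1 CPM in ctr, a log2 fold change of 0.14 (edgeR adjusted p = 0.496), and (GA)n had 0.00. The other strand, (CT)n and (TC)n, had -0.02 and -0.14. Of the 8 names of the AG class 6 were negative, and the summed class had -0.04 ± 0.08 (SE, edgeR adjusted p = 0.888). (TT)n, a second name for the T homopolymer, had 45.8 ± 3.104 CPM in TM and 56.3 ± 3.93 CPM in ctr with a log2 fold change of -0.30 (edgeR adjusted p = 0.0983), and (CC)n, with at most 11 counts in a library, was not tested.

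Units of 3 letters can sit in coding exons without shifting the reading frame. The AGC repeat, whose CAG form encodes runs of glutamine, had 960 runs, 520 of them in exons, and its 6 names summed to 583 ± 12.8 CPM in TM and 608 ± 9.53 CPM in ctr, with a log2 fold change of -0.06 ± 0.08 for the summed class (SE, edgeR adjusted p = 0.750). The AAC repeat, which holds the called ACA, was the most abundant class of this length, with 866 ± 18.8 CPM in TM and 948 ± 9.44 CPM in ctr, and the summed class had -0.13 ± 0.08 on the log2 scale (SE, edgeR adjusted p = 0.388). The AAT repeat had 399 ± 11.2 CPM in TM and 408 ± 18.9 CPM in ctr, and the ATC repeat 307 ± 10.1 CPM in TM and 339 ± 17.3 CPM in ctr. Neither passed the test as a class (edgeR adjusted p = 0.880 and 0.348).

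Among units of 4 letters the ACAT repeat was by far the most abundant. Its 8 names summed to 676 ± 28.5 CPM in TM and 727 ± 12.5 CPM in ctr, 6 of them had a negative log2 fold change, and the summed class had -0.10 ± 0.08 (SE, edgeR adjusted p = 0.541). The AAAT repeat followed with 281 ± 7.61 CPM in TM and 298 ± 17.3 CPM in ctr, and its 8 names were split evenly in sign. At the low end the AAGG class of the called TTCC had 5.14 ± 0.914 CPM in TM and 8.10 ± 0.843 CPM in ctr, a log2 fold change of -0.66 ± 0.26 (SE, edgeR adjusted p = 0.167), and 4 of its 14 runs lie on the Y chromosome. The ACCT class of the called AGGT had only 5 runs in the genome and 10.4 ± 2.46 CPM in TM against 13.9 ± 2.48 CPM in ctr.

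By unit length, the median log2 fold change was -0.17 for the 4 tested units of 1 letter, -0.11 for 11 of 2 letters, -0.04 for 61 of 3 letters and -0.05 for 208 of 4 letters. The summed level of each length class was lower in every TM library than in every ctr library. For units of 3 letters it was 2592 to 2683 CPM in TM and 2784 to 2837 CPM in ctr, and for units of 4 letters 2879 to 2996 CPM in TM and 3100 to 3148 CPM in ctr. Differences between the length classes were not tested.

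**Figure D4:**
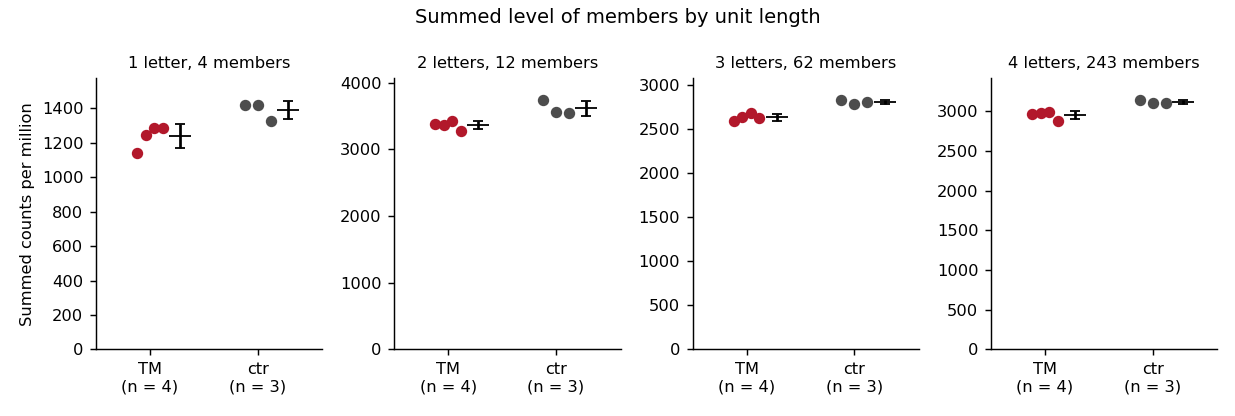
Summed CPM (vertical axes, scaled by TMM factors) of all members with units of 1, 2, 3 and 4 letters in each TM library (left, n = 4) and each ctr library (right, n = 3), with the mean and SD beside the points. In each panel the TM points lie under the ctr points; for units of 1 letter the means are 1239 and 1390 CPM.

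By composition, members without G or C held 33.7% of the members' counts, those with 1 such letter 45.5%, with 2 letters 17.3% and with 3 letters 3.44%. The median log2 fold change was -0.07, -0.05, -0.07 and -0.01 in this order, over 27, 93, 102 and 60 tested members. With 0 such letters the summed levels of the groups overlapped, at 3301 to 3522 CPM in TM and 3501 to 3874 CPM in ctr. They also overlapped with 3 letters (338.4 to 377.9 CPM in TM, 355.5 to 373.6 in ctr) and, on few counts, with 4. With 1 and with 2 letters the sum was lower in every TM library than in every ctr library. Of the 7 units made of G and C in all 4 letters only 2 were tested, with log2 fold changes of 0.96 and 1.15 on at most 29 counts in a library, and neither was called. Of the called units, ACA has 1 such letter, AGGT and TTCC have 2 and GGAC has 3.

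**Figure D5:**
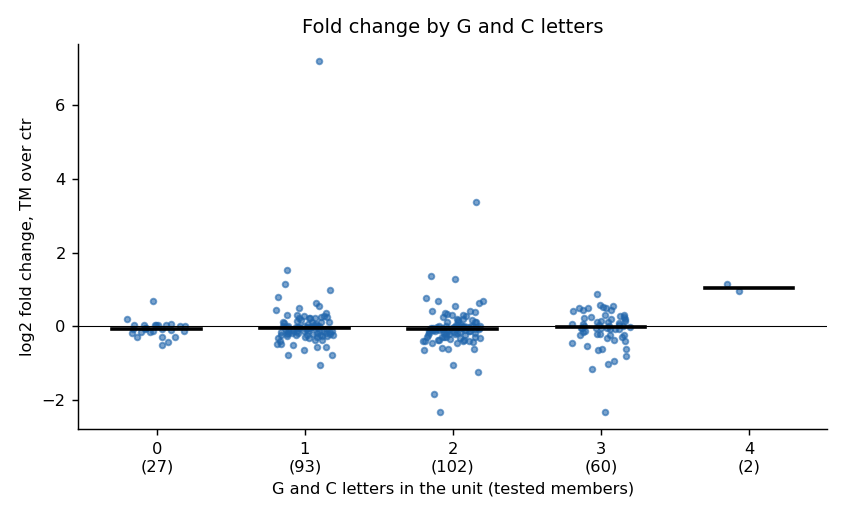
Log2 fold change of TM over ctr (vertical axis) of the 284 tested members by the number of G and C letters in the unit (horizontal axis, number of tested members in brackets), with the median as a black line. The medians of the columns with 0 to 3 letters lie between -0.07 and -0.01. The last column holds 2 members with few counts, which passed the count limit only through their TM libraries.

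Among members that did not pass the test, the smallest p-values on the higher side belonged to (TTTG)n and (ATGC)n, and then (AGTT)n and (GCTG)n. (TTTG)n, a unit of the AAAC class, had 1218, 1017, 892 and 1138 counts in TM against 795, 609 and 700 in ctr, with a log2 fold change of 0.50 ± 0.16 (SE, edgeR adjusted p = 0.0775). (GCTG)n had 808, 817, 797 and 655 counts in TM against 496, 611 and 520 in ctr, with 0.41 ± 0.16 (SE, edgeR adjusted p = 0.153). In neither did the groups overlap.

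Rare units gave the largest folds on very few reads. (ATGC)n had 54, 65, 85 and 40 counts in TM against 7, 0 and 9 in ctr (log2 fold change 3.37 ± 1.083, SE, edgeR adjusted p = 0.0863), while (CATG)n of the same class had 551, 603, 278 and 448 in TM against 763, 606 and 638 in ctr. (AGTT)n had 22, 9, 10 and 33 counts in TM and none in the 3 ctr libraries, at least 5.80-fold higher against a floor of 3 counts per ctr library, with an edgeR adjusted p of 0.116. DESeq2 called (ATGC)n and (AGTT)n and (TTTG)n as higher. Of these, (ATGC)n and (AGTT)n reached the limit of a mean of 10 counts only through their TM libraries. Their tests and folds thus rest on the group in which they were high.

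On the lower side (TGA)n came next after the called units. It had 921, 682, 685 and 740 counts in TM against 950, 1086 and 953 in ctr, a log2 fold change of -0.49 ± 0.14 (SE, edgeR adjusted p = 0.0552). Among members averaging at least 50 counts, the lowest log2 fold changes besides the called AGGT and TTCC were -1.16 for (GCGA)n, -1.02 for (GCCT)n and -0.93 for (GCGT)n, and the highest were 0.80 for (CTAA)n, 0.76 for (GTTC)n, 0.68 for (TAAT)n, 0.63 for (AGT)n and 0.58 for (GCG)n. None of these 8 passed the test (edgeR adjusted p from 0.141 to 0.526).

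The spread between replicate libraries of the repeats was like that of other features with similar counts. Between 100 and 1000 counts, the median SD of log2 CPM was 0.268 in TM and 0.242 in ctr over 162 members, and 0.271 in TM and 0.241 in ctr over 6493 other features. From 1000 counts on it was 0.111 in TM and 0.0982 in ctr over 61 members, and 0.141 in TM and 0.106 in ctr over 4795 other features. The median SE of the log2 fold change was 0.751 for members under 100 counts and 0.0990 from 1000 counts on.

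How reads of either strand were assigned to the repeat rows is not given in the sources used here. As a check on gene rows only, of 84 single-exon genes that lie inside a transcribed gene of the opposite strand, 62 had at least 2 times as many counts in the repeat table as in the table of sense gene-body counts, with 347501 counts in all against 71175. The tables may also differ in their filter on mapping quality and in the handling of reads with several places, and the part of these steps in the counts was not tested. For repeats inside introns, the part of transcription of the host gene in their values was not tested.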

How the data were processed

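Nascent RNA was measured by Gro-seq in 4 TM and 3 ctr libraries of cycle 14 embryos, grouped by their labels. The authors estimated counts of genes and repeats with TEtranscripts in snakePipes, and the deposited expected counts are whole numbers without normalization; how reads of several places were shared, the repeat annotation and the strand setting are not given in the sources used here. The authors also deposited counts of reads on sense gene bodies (Bowtie2 2.3.3.1, featureCounts of Subread 1.5.3, build dm6), used here only to check strand handling. All columns of both tables belong to these samples. No molecular identifiers are stated.

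Features whose mean reached 10 counts were tested in edgeR 4.0.16 (R 4.3.3) with TMM factors, robust quasi-likelihood fits and group as the only term, genes and repeats together, with Benjamini-Hochberg adjustment at 0.05. SE is the log2 fold change over the root of F. CPM were computed with library totals multiplied by TMM factors; 0.5 was added before log2 for SDs. Alternatives were DESeq2 1.42.0, other scaling and filters, a replicate block, adjustment over repeats alone, summed repeat classes and leaving out each library. The study's methods call the replicates biological; p-values measure the spread between these libraries. On simulated data made from these counts, the test of 17281 features recovered 66.7% of 2-fold and 63.3% of 4-fold changes among 30 members each, with 5.08% false among 118 calls. Perfect runs were searched in the RefSeq genome and placed with the Ensembl annotation, of which 17502 of 17626 shared genes had the authors' coordinates.

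Named members are the units of 1 and 2 letters, the 10 with most counts, all called, the 5 highest and 5 lowest fold changes at a mean of at least 50 counts, and the 5 smallest p-values per direction; rotations of called units and (CATG)n were chosen once their values had been seen. Members and lists were chosen with earlier results of these data known.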

Additional observations from a re-analysis of the deposited data

Results flagged for a closer look

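In 47 sets of 4 TM values that were screened for a library far from the others (shares, summed levels and named members), 3 were found. Chance flags about 1 set in 20, so this number is near the one that chance gives. (G)n had 6.28 CPM in TM replicate 1, against 4.25 to 4.50 in the other TM libraries and 3.23 to 4.50 in ctr. (GA)n had 34.1 CPM in TM replicate 3, against 44.9 to 46.8 in the other TM libraries and 41.0 to 43.9 in ctr. (GT)n had 299.5 CPM in TM replicate 3, against 273 to 275 in the other TM libraries and 300 to 339 in ctr.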

How the results depend on the processing

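The number of called members moved more with the settings than the direction did. Against 4 members called in edgeR, DESeq2 called 9 (3 higher and 6 lower) and no count filter gave 8 (2 higher and 6 lower). Adjustment over repeats alone gave 1, and summing the units of a repeat class, chosen after seeing the data, 0 of 47 classes. Over all features, the main edgeR test called 1019 of 17281, DESeq2 1514 of 17232 and edgeR without a count filter 1357 of 23880. Adjustment over repeats alone called 80 of 3260 repeat rows, and the fit with summed classes 1007 of 17044 features. Leaving out each library in turn gave 0 to 5 called members (0 without TM replicate 2, TM replicate 3, ctr replicate 2 or ctr replicate 3, and 1 without ctr replicate 1), while all features called numbered 564 to 1396, against 1019 with all libraries; these fits hold fewer samples. With 4 to 6 calls the other scalings and the filter at a mean of 50 counts stayed within 1.5 times the count. Over all features these settings called 1011 to 1064. The labels do not say whether libraries with the same replicate number were handled together. Correlations of same-numbered libraries were -0.00174, -0.0132 and 0.00982, which shows no shared shift but cannot exclude such a pairing. With a replicate block on the 3 shared numbers, which leaves out TM replicate 4, 4 members and 1294 features were called. The called members held (CATT)n in place of (GGAC)n. Without TM replicate 4 and with no block, 1396 features were called, and (CATT)n was likewise called and (GGAC)n was not.

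With library totals alone in place of TMM, medians of log2 fold changes moved down: -0.11 for all members, -0.17, -0.11 and -0.11 for units of 2, 3 and 4 letters, and -0.12 for units with 0, 1 and 2 G or C letters. Leaving out each library gave medians of -0.0823 to -0.0540 for all members, -0.0830 to -0.0547 for units of 3 letters, -0.0742 to -0.0409 for units of 4 letters, -0.110 to -0.0196 for units with 0 G or C letters, -0.113 to -0.0480 with 1, -0.120 to -0.0622 with 2, -0.0233 to 0.0242 with 3, where the sign changed, and 0.63 to 2.25 with 4. Without a count filter the last had a median of 2.005 over 6 units. In the main test its 2 units passed the count limit only through their TM libraries. The share of counts was 0.118 percentage points lower in TM, written as -0.118, and -0.145 to -0.100 with each library left out. Runs of at least 30 bases numbered 1132. Among the named members, 444 values under the alternatives were on the same side of the threshold, 22 lost a call and 9 gained one, and no called member changed sign. Members with few counts cannot show small changes at this depth.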

Other observations

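Names that write the same repeat from opposite strands carried unequal counts. The 4 names of the T homopolymer summed to a mean of 30144 counts per library, and the 1 name of the A homopolymer to 14342, although the plus strand of the genome holds 737 runs of T and 758 runs of A of at least 20 bases. The 4 names of the CT form summed to 16168 counts and those of its complement AG to 6443, with 284 and 260 runs. For the AC repeat the forms were close, with 29151 counts for the AC form and 27402 for the GT form over 1076 and 1181 runs. The 3 names of the AAC form summed to 16209 counts and those of GTT to 12965, with 202 and 187 runs. Within TM and within ctr the order of each pair was the same, for T against A with 886 and 419 CPM in TM and 991 and 476 CPM in ctr. The table does not give counts by place or strand, and the source of the inequality was not tested.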
